A study of Macaca mulatta with 48 samples.

Results

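Pachytene spermatocytes of the rhesus monkey testis were taken as the cells that held RNA of PIWIL1, the Piwi protein of pachytene piRNAs, together with RNA of other genes switched on in mid meiosis. A cell was a member if it had at least 1 unique molecular identifier (UMI, the tag of a single captured RNA molecule) of PIWIL1 and UMIs in at least 2 of 6 genes (LDHC, CLGN, POU5F2, OVOL1, ADAM2 and SPATA16). It also had to have 0 UMIs of AURKA, ACRV1 and SPACA1, which mark later stages, and under 5% of its UMIs in PRM1, PRM2 and TNP1, the genes of sperm chromatin proteins. POU5F2 was not among the features analysed here, so 5 of the 6 genes could count. The rule found 1137 members among 112150 cells in 12 libraries, 1.01% of all cells. These genes chose the cells, so their levels in the members are no finding.

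Pachytene is the long stage of the first meiotic prophase in which paired homologous chromosomes are held together by the synaptonemal complex and recombination is completed. At this stage the X and Y chromosomes, which pair only over a short region, are gathered into the sex body and their genes are shut down, a process called meiotic sex chromosome inactivation. Retrogenes, intronless copies of X-linked genes on autosomes, are known to be transcribed in these cells in place of their silent parents, and genes needed later for sperm assembly are already being switched on.

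The testes came from 6 rhesus monkeys, a species that breeds in a season, with 2 animals in each of 3 age groups: prepubertal (1 year old), adult (6 years old) and aged (22 years old). Of each animal, 1 testis was taken in August, when monkeys do not breed, and the other one in December, when they do. Each of the 6 groups of age and season thus held 2 libraries of whole testis tissue, made with the 10x droplet method. Breeding libraries came from animals that had already lost 1 testis, so season was tied to the order of removal in every animal. The paper lists possible compensation after removal of 1 testis among its limitations. The part of earlier removal in the seasonal differences below was not tested. Libraries are named by group and by animal, numbered 1 and 2 within an age group. The study asked how season and age alter spermatogenesis, and p-values below measure the spread between libraries or animals, of which there were at most 2 in a group.

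Members numbered 158 and 141 in the adult non-breeding libraries and 96 in the breeding library of adult animal 1. In aged animals the non-breeding libraries had 236 and 208 members, and 115 and 160 were found in the breeding season. Only 333 barcodes were in the matrix of adult animal 2 in the breeding season, at a median mitochondrial share of 17.6%, and of the 117 that passed the cell filter none was a member. Of those 117 cells, 46 carried a barcode also seen in the breeding library of aged animal 1, while it shared 0 to 2 barcodes with each of the other libraries. All adult breeding values of gene expression therefore come from 1 library. The 4 prepubertal libraries held 23 members among 38918 cells. Gene levels are given for the 7 libraries with at least 20 members (1114 cells, 385029 to 1301917 member UMIs a library), in CPM, the UMIs of a gene scaled to a common total of all member UMIs of the library. No length scaling was applied, since each UMI marks a captured molecule. The median UMIs of a member ran from 2085 to 7537.5 across these libraries and were higher in each adult library than in any aged library.

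The threshold of the rule cut through a continuum. Of the members, 400 had UMIs in exactly 2 of the 6 genes and 737 in 3 or more. Just outside, 369 cells met all other conditions with 1 of the genes and 272 with none. Another 2116 cells met the rule apart from having a UMI of AURKA, 2076 apart from a UMI of ACRV1 or SPACA1, and 211 apart from the limit on sperm chromatin genes. A further 5390 cells lacked only PIWIL1.

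Markers outside the rule placed the members in meiotic prophase. The study's text marks its pachytene cells by CDC112, which was read here as CCDC112. CCDC112 was seen in 38.6% to 77.2% of members in each library. It was seen in 3.9% to 20.4% of somatic reference cells, the endothelial, T and myeloid cells that should lack germ cell genes. In cells with at least 2000 UMIs, each thinned to 2000 UMIs, the shares were 36.2% to 63.5% and 0% to 22.1%. Cells that met the rule but for AURKA had it too. Thinned, they stood at 69.3% against 60.1% of members in adult non-breeding 1 and at 54.8% against 61.5% in adult breeding 1. CCDC112 thus does not set the members apart from those cells. Median depth was 1200 to 2533 UMIs in the somatic cells. SYCP3, a core protein of the chromosome axis, was seen in 35.2% to 75.9% of members (27.0% to 54.1% after thinning) and in 0.9% to 18.4% of somatic cells (0% to 20.8% after thinning). HORMAD1, which marks unsynapsed axes, was seen in 23.7% to 70.9% of members against 2.6% to 7.95% of somatic cells, and after thinning in 22% to 53.8% against 0% to 8.33%. Both proteins belong to the meiotic chromosome axis, and their shares in members lay above those in somatic cells of the same library in all 7 libraries.

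The members spanned more than a single stage. Each was sorted by UMIs of 7 measured genes of leptotene and zygotene cells (among them TEX101, MEIOB and RAD51AP2) and of 4 genes of diplotene (TMIGD3, CCNA1, CCNB2 and CDC25C). Early genes without diplotene genes were seen in 17.1% and 14.9% of members of the adult non-breeding libraries, 8.33% of the adult breeding library and 3.13% to 5.93% of the 4 aged libraries. Diplotene genes without early genes were seen in 9.49% and 29.8% of members of the adult non-breeding libraries, 46.9% of the adult breeding library and 50.0% to 64.4% of the aged libraries. Both adult non-breeding libraries thus had more early-only and fewer late-only members than the others, and they also differed from each other. These shares depend on depth, which also differed between the libraries, and the part of depth in them was not tested. Of the early genes, TEX101 averaged 261 CPM in members and 166 CPM in cells with early markers but no PIWIL1 (described below). MEIOB (78.3 and 287 CPM) and RAD51AP2 (74.1 and 215 CPM), which like TEX101 helped to choose those cells, were lower in members. A UMI of TEX101 alone therefore does not place a member before pachytene. Of the diplotene genes, CCNB2 averaged 485 CPM in members and 795 CPM in cells that met the rule but for AURKA. It also stood at 438 CPM in round spermatids and 208 CPM in somatic cells. A UMI of CCNB2 alone thus does not place a member in diplotene.

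**Figure D1:**
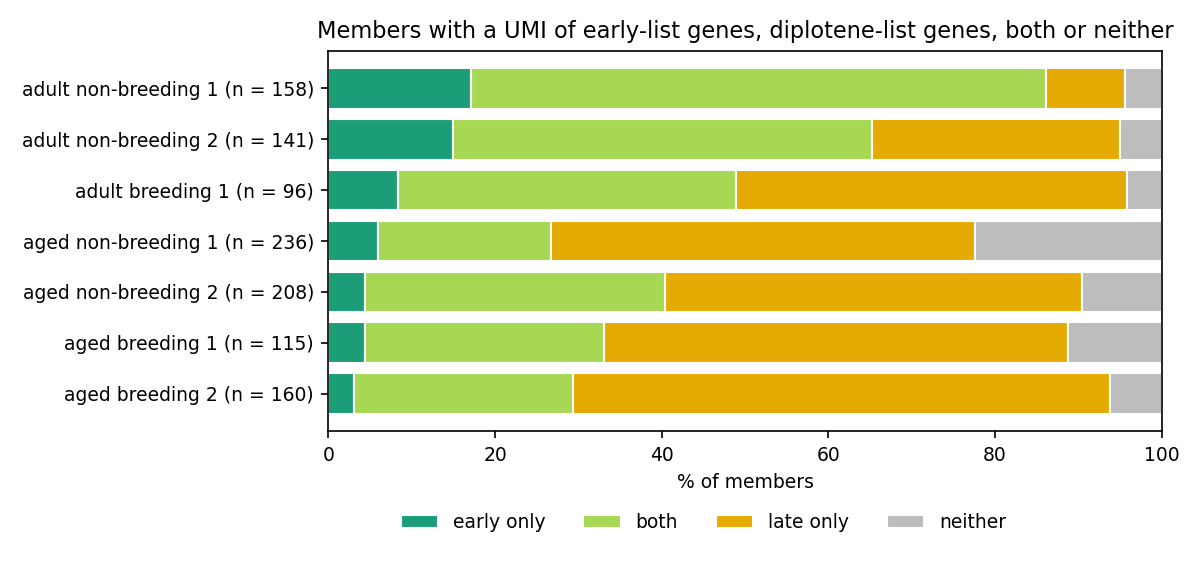
Share of members (horizontal axis, % of members, bars stacked to 100) with UMIs of early-list genes only, of both lists, of diplotene-list genes only or of neither, in each of the 7 libraries with at least 20 members. The early-only segment is widest in the adult non-breeding libraries (17.1% and 14.9%), and the late-only segment reaches 64.4% in aged breeding 2.

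To show how the sequence ahead of an X-linked gene compares with that of its autosomal copy, the 250 bases upstream of the annotated start are given for 2 pairs, in the Mmul_10 assembly with the RefSeq annotation and on the + strand, with each CG dinucleotide in capitals. PGK1 and PGK2 encode phosphoglycerate kinase of glycolysis, and PDHA1 and PDHA2 encode the E1 alpha subunit of pyruvate dehydrogenase. PGK1 (chrX:74831778-74854505, 11 exons) and PDHA1 (chrX:19100547-19118719, 11 exons) are the X-linked parents, while PGK2 (chr4:119692539-119694229) and PDHA2 (chr5:94194389-94195798) have 1 exon each.
PGK1, chrX:74831528-74831777: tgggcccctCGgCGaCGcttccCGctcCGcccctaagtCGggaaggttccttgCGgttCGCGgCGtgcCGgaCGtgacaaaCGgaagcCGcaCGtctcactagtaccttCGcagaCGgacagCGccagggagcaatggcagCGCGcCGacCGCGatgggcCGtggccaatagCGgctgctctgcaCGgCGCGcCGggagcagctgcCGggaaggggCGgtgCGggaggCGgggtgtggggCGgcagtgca
PGK2, chr4:119692289-119692538: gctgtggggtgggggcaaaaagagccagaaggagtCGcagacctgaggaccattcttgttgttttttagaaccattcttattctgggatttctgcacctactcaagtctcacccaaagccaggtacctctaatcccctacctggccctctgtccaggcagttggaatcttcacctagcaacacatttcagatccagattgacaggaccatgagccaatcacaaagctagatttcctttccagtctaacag
PDHA1, chrX:19100297-19100546: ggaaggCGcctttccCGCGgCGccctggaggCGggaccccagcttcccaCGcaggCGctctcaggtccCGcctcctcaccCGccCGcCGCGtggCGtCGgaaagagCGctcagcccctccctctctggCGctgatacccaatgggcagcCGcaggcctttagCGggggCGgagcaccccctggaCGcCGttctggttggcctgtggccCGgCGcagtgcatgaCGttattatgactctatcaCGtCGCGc
PDHA2, chr5:94194139-94194388: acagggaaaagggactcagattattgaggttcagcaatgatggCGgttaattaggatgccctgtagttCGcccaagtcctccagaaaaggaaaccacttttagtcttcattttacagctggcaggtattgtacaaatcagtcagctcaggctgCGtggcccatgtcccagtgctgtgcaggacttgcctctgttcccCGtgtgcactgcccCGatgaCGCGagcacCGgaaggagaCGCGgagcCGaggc
The window of PGK1 held 34 CG dinucleotides and that of PGK2 held 1. PDHA1 had 27 and PDHA2 had 11. CG reads the same on both strands. Of 20768 protein-coding windows of this length, 95.9% held at least 1 CG, 10.7% held at most 1, as PGK2 did, and 7.04% held at least as many as PGK1. The median was 12 over all windows, 8 over those on X, 21.5 over the 8 X-linked parents measured here and 12 over the 9 retrogenes. The parent had more than its retrogene in all 8 pairs, and the pairs ranged from 34 against 1 for PGK1 and PGK2 to 22 against 21 for RPL10 and RPL10L.

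X-linked RNA was scarce in the members. Genes on X gave 1.08% and 0.962% of the UMIs of placed genes in the adult non-breeding libraries and 0.324% in the adult breeding library. In aged animals the share was 0.879% and 0.411% in the non-breeding and 0.431% and 0.426% in the breeding libraries. Early-marker cells, which held UMIs of at least 2 leptotene and zygotene markers and none of PIWIL1, the 6 genes, AURKA, ACRV1 or SPACA1, had 2.23% to 3.62% in the 4 of these 7 libraries that held at least 20 of them. They are named by their markers only, since they also held Sertoli RNA (CST9L at a mean of 719 CPM, CLU at 618 CPM, FATE1 at 558 CPM and AMH at 438 CPM, against MEIOB at 287 CPM) and made up 6.86% to 7.31% of cells in the prepubertal libraries against 0.0389% to 6.29% in the adult and aged libraries with members. The part of this Sertoli RNA in any contrast with the early-marker cells was not tested. Somatic reference cells had 2.14% to 2.82%. AURKA-positive spermatocytes, which met the rule but for AURKA, had 0.163% to 0.588% and round spermatids 1.02% to 1.75%. In every library with the class the members lay below the early-marker, somatic and round spermatid cells and above the AURKA-positive cells. The classes were set by marker genes, so these differences are a description and carry no test.

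**Figure D2:**
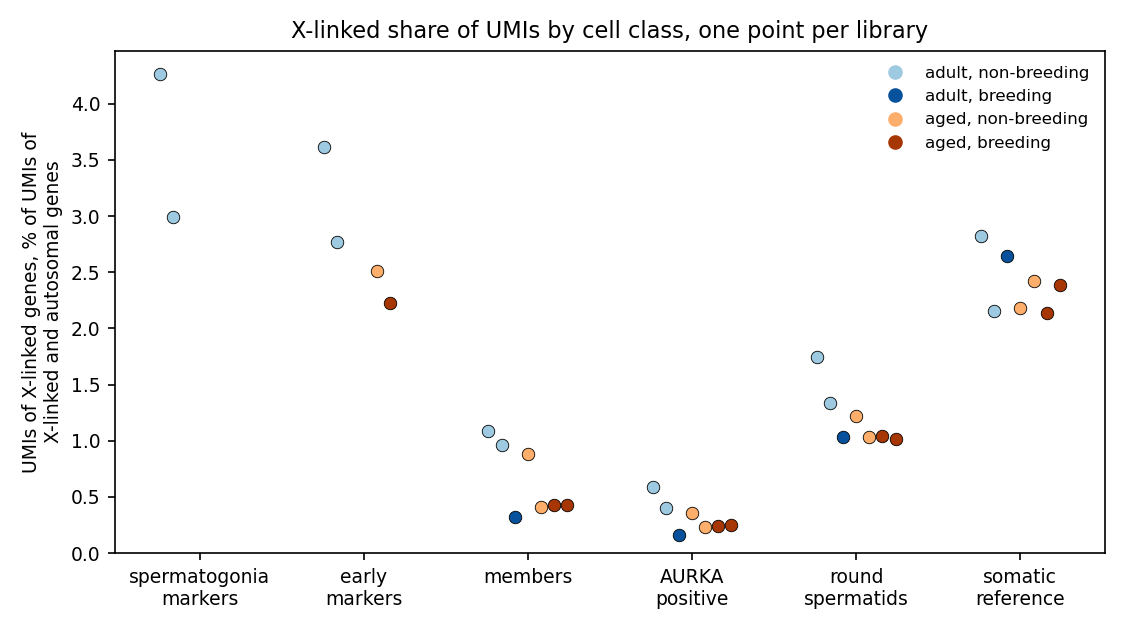
Share of UMIs that came from X-linked genes (vertical axis, % of the UMIs of X-linked and autosomal genes) in 6 cell classes, 1 point per library coloured by age and season, for libraries with at least 20 members and at least 20 cells of the class. Members range from 0.324% to 1.08%, below early-marker cells (2.23% to 3.62%) and above AURKA-positive spermatocytes of the same library.

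Most X-linked genes were lower in members than in early-marker cells. Of 263 X-linked genes at 20 CPM or more in early-marker cells, 260 (98.9%) were lower in members and 148 (56.3%) were at least 2-fold lower, with 20 CPM added to both levels. Among 7983 autosomal genes the shares were 67.3% and 16.3%. The median log2 ratio was -1.05 for the X-linked and -0.37 for the autosomal genes. Against AURKA-positive spermatocytes none of 31 X-linked genes was lower in members, beside 2400 of 5548 autosomal genes (43.3%). Against round spermatids 83 of 98 X-linked genes (84.7%) were lower, beside 2816 of 5728 autosomal genes (49.2%). X-linked genes with the highest levels in members were RPL10, PRDX4 (a peroxiredoxin of the endoplasmic reticulum), SSR4, TIMP1, RPS4X, FATE1, AKAP4 and FHL1, at 106 to 202 CPM. Each of these 8 had a lower mean in members than in early-marker cells. TIMP1 stood at 435 CPM in adult non-breeding 1 and at 7.79 CPM in aged breeding 1. FATE1, a Sertoli cell marker here, stood at 471 CPM and 7.79 CPM in the same libraries and at a mean of 200 CPM in somatic cells. AKAP4, which encodes a scaffold of the sperm tail, stood at 6.14 to 196 CPM in members and at a mean of 310 CPM in somatic cells. On average FATE1 and AKAP4 in members were thus below their levels in cells that should lack them.

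Within the members, the early-only cells had a larger X-linked share than the cells with diplotene genes. It was 2.01% and 1.89% in the early-only members of adult non-breeding 1 and 2, where there were 27 and 21 such cells. In late-only members it was 0.943% in adult non-breeding 2, 0.323% in adult breeding 1 and 0.397% to 0.744% in the aged libraries. Members with both kinds of gene had 0.216% to 0.937%, less than the late-only members of every library where both values were at hand. Those with both kinds were also deeper, at a median of 3628 to 9181 UMIs against 1902.5 to 3927. A UMI of an early gene thus did not by itself go with a larger share. The 53 members of aged non-breeding 1 with neither kind of gene stood at 2.02%, and the 20 of aged non-breeding 2 at 1.32%. Of the members, 33 also held UMIs in at least 3 endothelial, T cell or myeloid markers, and 29 of them were in aged non-breeding 1. In that library the members also held 4300 CPM of erythroid genes in total, mostly HBE1 at 3346 CPM, against 0 to 14.4 CPM elsewhere. Predicted doublets made up 95 of the 1137 members.

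The mean level of the retrogene stood above that of its X-linked parent in all measured pairs but TAF1 and TAF1L. Means of members are over 7 libraries and those of early-marker cells over the 4 libraries with enough cells. PGK2 was at 108, 224 and 364 CPM in the adult libraries (non-breeding 1 and 2, breeding 1) and at 403, 260, 348 and 478 CPM in the aged libraries (non-breeding 1 and 2, breeding 1 and 2). PGK1 was at 37.6, 27.3 and 14.5 CPM in adults and at 15.7, 6.70, 10.4 and 1.85 CPM in aged animals. The levels of the pair did not overlap in any library. The mean of PGK2 was 312 CPM ± 124 (SD, n = 7 libraries) in members and 66.6 CPM in early-marker cells, while PGK1 had 16.3 CPM ± 12.4 in members and 102 CPM in early-marker cells. PDHA2 had 390 CPM ± 129 in members and 57.5 CPM in early-marker cells, and PDHA1 had 9.36 CPM ± 9.30 and 72.2 CPM. For both enzymes of energy metabolism the members thus held more RNA of the autosomal copy. In somatic cells, which should lack both retrogenes, PGK2 was at a mean of 241 CPM and PDHA2 at 237 CPM. Members were above the somatic cells in 5 of 7 libraries for PGK2 and in 6 of 7 for PDHA2.

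RNA processing, centriole and ribosome genes showed the same arrangement on average. RBMXL2, the retrogene of the splicing factor RBMX, was at 119 CPM ± 29.9 (SD, n = 7) in members against 24.8 CPM in early-marker cells, and RBMX at 21.5 CPM ± 15.1 against 187 CPM. CETN1, a centrin of the centriole, was at 3039 CPM ± 748 in members against 376 CPM in early-marker cells, while its parent CETN2 was at 38.6 CPM ± 19.7 against 115 CPM. RPL10L, a ribosomal protein gene, was at 465 CPM ± 118 against 32.6 CPM, and RPL10 at 202 CPM ± 195 against 886 CPM. In adult non-breeding 1, however, RPL10 (322 CPM) was above RPL10L (300 CPM). CSTF2T, of the polyadenylation machinery, was at 19.5 CPM against 7.70 CPM. The retrogenes not above their level in early-marker cells were TAF1L, at 2.49 CPM in members and 3.68 CPM in early-marker cells, and UTP14C, at 5.46 CPM against 21.9 CPM. RPL36AL, whose parent was not measured, was at 203 CPM against 194 CPM. Every one of the 8 parents was lower in members than in early-marker cells in all 4 libraries that allowed the comparison, and 6 of the 9 retrogenes were higher in all 4. The early-marker cells held the Sertoli RNA given above (AMH at 438 CPM against 83.0 CPM in members), and its part in the levels of the parents was not tested. Somatic reference cells had PGK1 at 77.1 CPM, PDHA1 at 28.3 CPM and RBMX at 94.4 CPM on average, each above the members. Of the retrogenes they had CETN1 at 1200 CPM, RPL10L at 171 CPM and RBMXL2 at 29.6 CPM, each below the members. RPL36AL was at 297 CPM in somatic cells, and members were above them in 0 libraries.

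**Figure D3:**
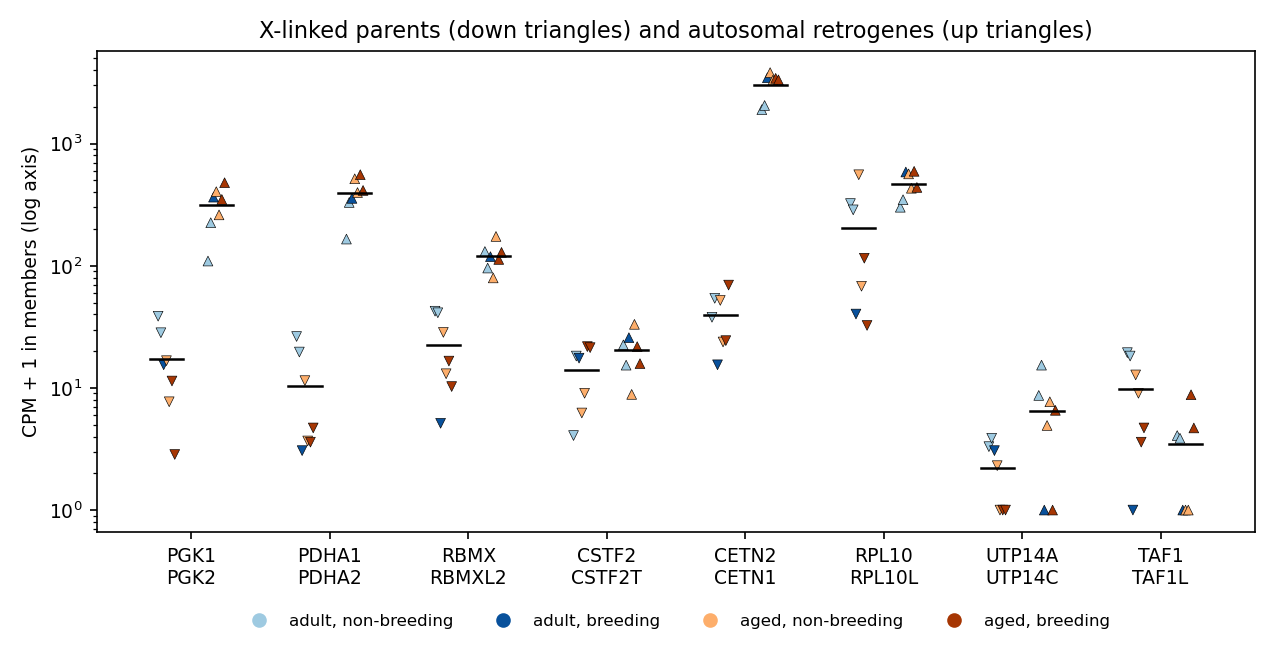
Level in members (vertical axis, CPM + 1, log axis) of 8 X-linked parents (down triangles) and their autosomal retrogenes (up triangles), 1 point per library with the mean as a bar. PGK2, PDHA2, RBMXL2 and CETN1 lie above their parents in all 7 libraries, whereas TAF1L lies below TAF1 on average.

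Genes of the chromosome axis and synaptonemal complex were led by HORMAD2 at 517 CPM ± 78.1 (SD, n = 7), SYCP3 at 298 CPM ± 73.8, SYCE3 at 295 CPM ± 105 and SYCP2 at 290 CPM ± 52. HORMAD2, like HORMAD1, loads on unsynapsed axes, and it was at 113 CPM in early-marker cells and 309 CPM in round spermatids. Of 14 genes of this list at 20 CPM or more in either class, 3 were at least 2-fold higher and 1 at least 2-fold lower than in early-marker cells. Over all 9091 genes 883 were higher and 1494 lower. SMC1B, the meiotic cohesin subunit, was lower in members (181 CPM) than in early-marker cells (528 CPM) in all 4 libraries.

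Recombination genes differed among themselves. MLH3, which acts in crossover resolution, was at 581 CPM ± 177 in members and 75.1 CPM in early-marker cells. SPATA22, a partner of MEIOB on single-stranded DNA (483 CPM ± 165), and the crossover gene CNTD1 (224 CPM ± 23.5) were likewise higher than in early-marker cells, at 124 and 48.2 CPM, whereas MEIOB itself was at 78.3 CPM in members and 287 CPM in early-marker cells. Other genes of the list were lower in members. MEIOB, ZCWPW1 and TEX15 are among the markers that chose the early-marker cells, so their higher level there is no finding. ZCWPW1, a reader of the histone marks set by PRDM9, was at 28.2 CPM against 441 CPM, TEX15 at 38.1 CPM against 481 CPM and BRCA2 at 42.2 CPM against 219 CPM. HFM1, a helicase of crossover formation, was at 121 CPM ± 46.8 in members and at 153 CPM in early-marker cells. Of 23 recombination genes, 3 were at least 2-fold higher and 8 at least 2-fold lower than in early-marker cells. Over all 9091 genes with a symbol the counts were 883 and 1494. The recombination list shares SPO11, DMC1, MEIOB, PRDM9, ZCWPW1 and TEX15 with the markers that chose the early-marker cells. Part of its lower count was thus set by that choice.

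The piRNA pathway silences transposons and cleaves RNA in germ cells. Its genes with the highest levels in members, apart from PIWIL1, were GTSF1 (543 CPM ± 106), the cochaperone FKBP6 (390 CPM ± 93.2), the helicase DDX4 (370 CPM ± 52.7) and the Tudor protein RNF17 (333 CPM ± 65.5). FKBP6 was at 73.0 CPM in early-marker cells and at 41.5 CPM in round spermatids, but at 332 CPM in AURKA-positive spermatocytes. Of 22 pathway genes, 7 were at least 2-fold higher and 1 lower than in early-marker cells, beside 883 and 1494 of all 9091 genes. Over round spermatids 13 were at least 2-fold higher, beside 819 of all 7493 genes, while none differed 2-fold from AURKA-positive spermatocytes. MYBL1, which drives transcription of pachytene piRNA clusters, was at 68.2 CPM ± 7.41, with 61.1 to 78.3 CPM in the 7 libraries.

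Regulators of transcription and RNA were led by CREM (827 CPM ± 180), BRDT (582 CPM ± 55.8), TBPL1 (349 CPM ± 69.2) and BOLL (345 CPM ± 49.8). BRDT, a testis bromodomain protein, ranged from 493 to 673 CPM over the libraries and was at 123 CPM in early-marker cells. CREM, an activator of spermatid genes, was lower than in round spermatids (1468 CPM) in all 7 libraries. Of 17 genes of this list, 9 were at least 2-fold higher and 1 lower than in early-marker cells, beside 883 and 1494 of all 9091 genes. Genes for entry into the meiotic divisions were led by the kinase cofactor CKS2 at 1133 CPM ± 316, cyclin CCNB2 at 485 CPM ± 102, the kinase activator SPDYA at 325 CPM ± 76.4 and CDC20 at 233 CPM ± 64.5. In somatic cells CCNB2 was at 208 CPM and CDC20 at 131 CPM. CKS2 was at 97.0 CPM in round spermatids. CCNA1, the meiotic A-type cyclin, was at 228 CPM ± 99.6 in members and 564 CPM in AURKA-positive cells.

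Genes of sex body formation and the DNA damage response did not stand apart in the members. Of 15 such genes, none was 2-fold higher and 4 were 2-fold lower than in early-marker cells, and their median log2 ratio was -0.68 beside -0.33 for all genes. MDC1, which spreads the damage signal over the X chromosome, was at 86.8 CPM ± 17.4 against 44.4 CPM in early-marker cells, and BRCA1 was at 34.6 CPM against 162 CPM.

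Of 22 axoneme and flagellum genes, 13 were at least 2-fold higher and none 2-fold lower than in early-marker cells. Over all 9091 genes 883 were higher and 1494 lower, which holds for each list set against early-marker cells in this paragraph. ROPN1L was at 1073 CPM ± 350, SPAG16 at 986 CPM ± 131, MNS1 at 978 CPM ± 180 and the outer dense fibre gene ODF2 at 920 CPM ± 296. In somatic reference cells, which should lack them, ROPN1L was at 599 CPM, SPAG16 at 336 CPM, MNS1 at 391 CPM and ODF2 at 979 CPM, so ODF2 in members was below that background. Over somatic cells, 7 of 23 axoneme genes and 4 of 11 acrosome genes were at least 2-fold higher in members, beside 721 of all 8876 genes. Of 10 acrosome and sperm surface genes, 8 were at least 2-fold higher than in early-marker cells, with the zona-binding protein gene ZPBP at 565 CPM ± 90.2. Of 20 glycolysis genes, 5 were at least 2-fold higher and 3 lower than in early-marker cells (median log2 ratio 0.20), and of 27 respiration genes 4 were higher and 2 lower (median 0.24). In glycolysis, the muscle-type enzyme PGAM2 was at 898 CPM ± 287 against 186 CPM in early-marker cells and LDHA at 341 CPM ± 61.1 against 48.5 CPM, while GAPDH was at 264 CPM against 683 CPM. For respiration, COX5A was at 963 CPM ± 121 against 351 CPM. Of 7 late sperm genes, none was 2-fold higher or lower than in early-marker cells (median log2 ratio -0.55 beside -0.33 for all genes), and 6 were at least 2-fold lower than in somatic cells (median -1.30).

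The genes with the highest levels in members were UBB (ubiquitin, 6819 CPM ± 999), GSTM3 (6434 CPM), ANKRD7 (4909 CPM ± 986), GLIPR1L1 (4831 CPM ± 1012), the chaperone gene HSP90AA1 (4630 CPM ± 1228), ADORA2B (4607 CPM), H3-3B (3886 CPM ± 754), TSACC (3283 CPM ± 850) and CETN1. The genes highest over early-marker cells included LYAR (2092 CPM against 133 CPM, ratio 13.1 with 20 CPM added), ANKRD7 (358 CPM in early-marker cells, ratio 12.2), ZMYND10 (1212 CPM against 84.1 CPM), GLIPR1L1 (409 CPM in early-marker cells) and the glucose transporter gene SLC2A14 (344 CPM against 16.0 CPM). All 5 were higher in members in each of the 4 libraries compared. The ratios use the members of these 4 libraries, while the member levels printed are means over all libraries with at least 20 members. ADORA2B went the other way, at 7145 CPM in early-marker cells.

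Against AURKA-positive spermatocytes the differences were small, and 108 of 6937 genes were at least 2-fold higher in members and 28 lower. The AURKA-positive cells were deeper in every library, and the part of depth in these counts was not tested. TEX101, a germ cell surface protein gene, was at 261 CPM in members and 62.6 CPM in AURKA-positive cells, and higher in all 7 libraries, as were its family members LY6K (189 against 56.9 CPM) and GML (116 against 22.8 CPM). TNFRSF12A was at 44.7 CPM in members and 212 CPM in AURKA-positive cells, and TMIGD3 at 103 and 261 CPM. Some genes on this list were not of germ cells, with HBE1, B2M and CD74 led by aged non-breeding 1 (3346, 992 and 260 CPM). Against round spermatids, CKS2, ANKRD30A (441 against 34.1 CPM), MLH3 (52.3 CPM in round spermatids) and HSP90AA1 (605 CPM) were higher in members in all 7 libraries. TMEM190 (118 against 979 CPM), TEX29 (89.9 against 773 CPM), SPACA3 (84.9 against 675 CPM) and EQTN (78.7 against 630 CPM) were lower in all 7. Round spermatids were chosen by UMIs of markers that include TMEM190, TEX29 and SPACA3, so the direction of those genes is no finding.

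Members as a share of cells were compared first between seasons. In adult non-breeding libraries the share was 1.71% (exact 95% binomial interval 1.46% to 2%) and 1.37% (1.15% to 1.61%). It was 1.02% (0.83% to 1.25%) in the breeding library of adult animal 1 and 0 of 117 cells in that of animal 2, which allows a share of up to 2.56% by a count of 3 and of up to 3.10% by the exact interval. Intervals cover counting error only. The means were 0.512% ± 0.723 (SD, n = 2) in breeding and 1.54% ± 0.241 (n = 2) in non-breeding libraries, a difference of -1.03 percentage points (exact permutation test, two-sided, p = 0.333). With 2 libraries against 2 no smaller p can be had. The library with 0 members decides much of that mean, and within animal 1 the share was 1.71% and 1.02%. Without that library the difference was -0.517 percentage points, and with at least 3 of the 6 genes required it was -0.594 with that library still included. Under that stricter rule adult breeding 1 (0.799%) lay just above adult non-breeding 2 (0.787%), so the groups overlapped apart from the library with 0 members. In aged animals the shares were 1.83% and 1.58% in non-breeding and 1.55% and 1.48% in breeding libraries, a difference of -0.192 percentage points (exact permutation p = 0.333). This was -0.0669 without aged non-breeding 1 and -0.316 without aged non-breeding 2. Thinning to 2000 UMIs kept only cells with at least that many, 71611 of 112150, and thinned shares are of the cells kept. These were 5454 of 12869 cells in aged non-breeding 1 and 6791 of 9239 in adult non-breeding 1. After thinning the aged libraries stood at 4.11% and 2.94% against 3.09% and 2.64%, and the groups overlapped. Within each aged animal the breeding testis had the lower share, from 1.83% to 1.55% and from 1.58% to 1.48%, and likewise after thinning, but under the stricter rule it was the higher one in aged animal 1 (0.917% to 0.945%). No paired test was made with 2 pairs. Between ages, animals stood at 1.36% and 1.35% (adult) and 1.73% and 1.54% (aged), a difference of 0.276 percentage points (exact permutation p = 0.333), or 0.180 without aged animal 1. Thinned, and so among cells with at least 2000 UMIs only, this difference was 1.09 percentage points. At this number of libraries the exact test could not pass 0.05 for any of these differences.

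**Figure D4:**
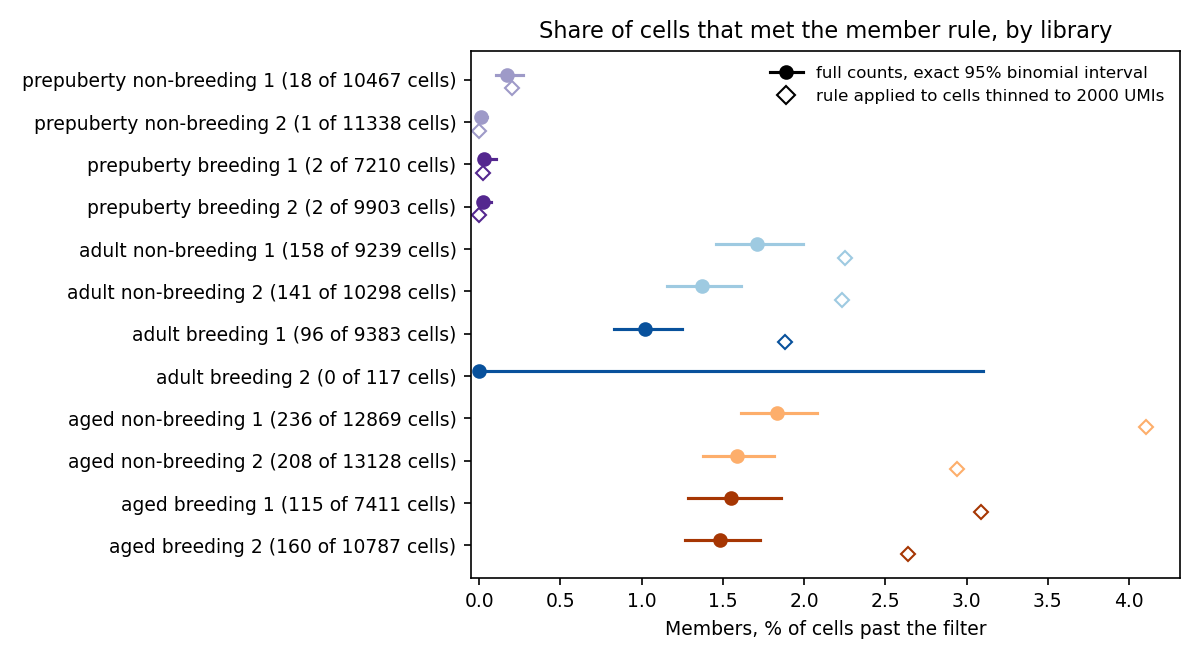
Members as a share of cells past the filter (horizontal axis, %) in the 12 libraries, as circles with exact 95% binomial intervals. Diamonds give the share among cells with at least 2000 UMIs, each thinned to 2000 UMIs before the rule (not drawn for adult breeding 2, which held few deep cells). Adult and aged libraries range from 1.02% to 1.83% apart from adult breeding 2 with 0 of 117 cells, and prepubertal libraries lie at or below 0.172%.

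The X-linked share of member UMIs was lower in the adult breeding library (0.324%) than in both adult non-breeding libraries (mean 1.02% ± 0.0851, n = 2), by 0.698 percentage points. With 1 library against 2 the exact permutation p was 0.333, the lowest possible. Other values differed between these libraries in the same way. The share in AURKA-positive cells was 0.588% and 0.403% against 0.163%, and in round spermatids 1.75% and 1.34% against 1.04%. Early-only members were 17.1% and 14.9% against 8.33% of members. In adult non-breeding 1 and 2 they had a larger X-linked share than members with diplotene genes. Summed Sertoli markers in members were 2346 and 1208 against 527 CPM. The part of these values in the difference was not tested. In aged animals the breeding libraries averaged 0.428% ± 0.00393 and the non-breeding libraries 0.645% ± 0.331 (n = 2 each), and the groups overlapped (exact permutation p = 1). The difference of -0.217 percentage points turned to 0.0172 without aged non-breeding 1 and was -0.451 without aged non-breeding 2, -0.0951 with the stricter rule, -0.124 without the 10 X-linked genes with the most UMIs and -0.0613 with the rule on thinned cells. Between ages, adult animals stood at 0.875% and 0.962% and aged animals at 0.729% and 0.417%, a difference of -0.346 percentage points (exact permutation p = 0.333) that was -0.190 without aged animal 2, -0.219 without predicted doublets and -0.214 with the stricter rule. When the member rule was applied to thinned cells, the difference between ages shrank to -0.0604 percentage points and the adult difference between seasons to -0.270. That setting changed which cells were members, since thinning also removes UMIs of AURKA and PIWIL1. AURKA-positive cells numbered 234 before and 43 after thinning in adult non-breeding 1, and 341 and 137 in aged non-breeding 1. The part of this change of cells in the smaller differences was not tested.

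No gene passed the test between seasons in adult members. In edgeR's quasi-likelihood test with Benjamini-Hochberg adjustment, 0 of 10685 features (0.0%) had an adjusted p under 0.05, while 737 higher (6.9%) and 763 lower (7.14%) in the breeding season had an unadjusted p under 0.05. DESeq2 called 46. With the animal as a block, which leaves 1 residual degree of freedom and rests on adult animal 1, 1107 features were called, 740 higher and 367 lower. Without adult non-breeding 2, which sets 1 adult breeding against 1 adult non-breeding library and takes the spread from the aged libraries alone, 376 were called. The self-test at this design recovered 15% of simulated 4-fold changes and none of the 2-fold changes, so small differences were not detectable at this depth and number of libraries.

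Lists are therefore described by counts and medians, where the median log2 difference (breeding minus non-breeding) over all features was -0.06. The 7 tested X-linked parents had a median of -2.73, with 3 lower at an unadjusted p under 0.05, and the 8 retrogenes a median of 0.71, with 3 higher. RBMX stood at 41.5 and 40.2 CPM in the non-breeding and 4.13 CPM in the breeding members (log2 -3.03, SE 0.863, adjusted p = 0.301). CETN1 stood at 1896 and 2051 CPM against 3460 CPM (log2 1.03, SE 0.195, adjusted p = 0.297). Of 24 axoneme genes, 9 were higher at an unadjusted p under 0.05 and none lower, with a median of 0.44. Of 11 acrosome genes 5 were higher (median 1.02), and of 19 glycolysis genes 5 were higher (median 0.72). All 5 tested early genes had negative estimates (median -1.34). Among these, ZCWPW1 stood at 63.0 and 87.6 CPM against 2.07 CPM (log2 -4.85, SE 0.766, adjusted p = 0.297) and RAD51AP2 at 230 and 201 CPM against 4.13 CPM. SYCP1, the transverse filament of the synaptonemal complex, stood at 419 and 421 CPM against 103 CPM (log2 -1.80, SE 0.453, adjusted p = 0.297), and the estimate turned to 0.18 in members with late genes and no early genes. CCNA1 stood at 43.8 and 182 CPM against 194 CPM, so its non-breeding libraries differed from each other more than from the breeding library on average.

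Meiotic lists lay on both sides of the median of all features. The axis list (13 tested) had a median of 0.34 with 1 gene higher and 1 lower at an unadjusted p under 0.05, the piRNA list (22 tested) a median of 0.13 with 2 higher, and respiration genes (27 tested) a median of 0.19 with 2 higher and 1 lower. The meiotic division list (16 tested) had a median of 0.75 with 2 higher. The recombination list (21 tested) had a median of -0.62 with 3 lower, and the sex chromosome and damage response list (15 tested) a median of -0.72 with 3 lower. Cell junction genes (15 tested) had a median of -0.76 with 5 lower. Sertoli markers moved with them, since all 10 had negative estimates (median -1.65). Their summed level in members was 2346 and 1208 CPM in the non-breeding and 527 CPM in the breeding library, against 4035, 1625 and 650 CPM in somatic cells of these libraries, and 1 of the 10 was at 0 in the breeding library, while AMH was at 365, 111 and 66.1 CPM in members. Late sperm genes had a median of 2.06 over 7 genes. The 3 measured markers of elongated spermatids, other than those in the rule, summed to 88.3 and 656 CPM in the non-breeding and 1146 CPM in the breeding members, against 156, 1285 and 3530 CPM in somatic cells. The part of free RNA in the seasonal differences was not tested.

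In aged members the season comparison also called 0 of 10685 features (0.0%) in edgeR, with 444 at an unadjusted p under 0.05, and DESeq2 called 1. With the animal as a block, 102 were called, 25 higher and 77 lower. The axoneme genes (median 0.03), the glycolysis genes (median -0.04) and the retrogenes (median 0.04) stood close to the median of all features, -0.02, and none of the axoneme genes had an unadjusted p under 0.05. The X-linked parents had a median of -0.95, with 1 lower at an unadjusted p under 0.05. CETN1 stood at 3810 and 3307 CPM in the non-breeding and 3423 and 3328 CPM in the breeding members, and the groups overlapped. SYCE3 stood at 208 and 214 CPM against 325 and 492 CPM (log2 1.01, SE 0.328, adjusted p = 0.998) with no overlap. Sertoli markers had a median of -1.66.

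The seasonal change itself was compared between adult and aged members by an interaction term, and 0 of 10685 features (0.0%) passed in edgeR, while DESeq2 also called 0 and 475 had an unadjusted p under 0.05. A block for the animal raised the count to 411. CETN1 had an interaction estimate of log2 1.07 (SE 0.256, adjusted p = 0.893) and ZCWPW1 of log2 -4.53 (SE 0.984, adjusted p = 0.893). A larger seasonal change in adult than in aged members was therefore not shown. APOA1, PRSS21 and VIM were picked by the study for qPCR on testis tissue, and PPM1E stands in its list of qPCR primers. None of them was called between seasons, between ages or in the interaction. In adult members, non-breeding 1 and 2 and breeding 1 in that order, APOA1 stood at 463, 340 and 114 CPM, VIM at 283, 187 and 49.6 CPM, PPM1E at 325, 365 and 122 CPM and PRSS21 at 152, 157 and 167 CPM. The first 3 were thus lower in the breeding library than in both others, and the median log2 difference of the 4 was -1.44. In somatic reference cells APOA1 averaged 321 CPM and VIM 1936 CPM, above the members.

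Between ages, the members of each animal were summed, and 33 of 10490 features passed in edgeR's quasi-likelihood test, 16 higher (0.153%) and 17 lower (0.162%) in aged animals. All 33 had an adjusted p of 0.0487, just inside the threshold, and 2620 features had an unadjusted p under 0.05. DESeq2 called 518. Adult animal 2 entered with its non-breeding members alone, so age and season were partly mixed, and neither the non-breeding nor the breeding libraries alone gave a call (0 each). The call was also lost for all 33 when predicted doublets were left out (adjusted p 0.0606 to 0.0712), when the rule was applied to thinned cells, and when adult animal 1 was left out (1 other feature called). The direction was the same for every called feature that these fits tested, 27 of the 33 with breeding libraries alone. The size differed by gene in the breeding libraries alone, where the log2 difference was 0.08 for SMCP, 0.08 for TPPP2, 0.06 for PI4K2A, 0.18 for C2H3orf22 and -0.68 for TEX101, against 1.85, 2.07, 1.75, 1.80 and -1.81 with all libraries, while INHA (-3.88 against -3.80), PTGDS (-2.23 against -2.13), CST9L (-2.14 against -2.28) and LAPTM4B (-3.07 against -3.05) were about as large. Without predicted doublets the estimates were also about as large, as for PI4K2A (1.67) and RFX1 (1.83), while with the rule on thinned cells RFX1 was at 0.93 and PI4K2A at 1.59. On simulated data of this design the test recovered 25 of 100 genes changed 2-fold and 72 of 100 changed 4-fold. It also made 24 false calls among unchanged genes. False calls were thus a larger part of its calls than the threshold of 0.05 allows, so the error rate of the age calls may exceed the nominal one.

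The genes that fell with age included genes of the early list. Of these, TEX101 averaged 261 CPM in members, 166 CPM in early-marker cells and 62.6 CPM in AURKA-positive cells. The part of stage in its fall was not tested. TEX101 stood at 598, 485 and 223 CPM in the adult libraries (non-breeding 1 and 2, breeding 1) and at 64.1, 163, 177 and 113 CPM in the aged libraries (non-breeding 1 and 2, breeding 1 and 2), and the groups did not overlap. Its change was log2 -1.81 (SE 0.233, edgeR adjusted p = 0.0487), and in somatic cells it averaged 28.5 CPM in adult libraries, with a lower mean in aged libraries. RAD51AP2, a gene of the early list, stood at 230, 201 and 4.13 CPM in adult and at 37.9, 21.4, 20.8 and 3.70 CPM in aged libraries (log2 -2.81, SE 0.364), and here the adult breeding library lay within the aged range. Of 5 early genes tested, these 2 were called lower, and the list's median was -1.81 beside 0.00 over all features. The X-linked HPRT1, a purine salvage enzyme gene, stood at 164, 126 and 18.6 CPM in adult and at 10.4 to 39.3 CPM in aged libraries (log2 -2.16, SE 0.280), with the adult breeding library inside the aged range.

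Markers of Sertoli cells, the supporting cells of the tubule, also fell. AMH, INHA, CLU and CST9L, 4 of 9 tested Sertoli markers, were called lower, and the list had a median of -2.24. INHA, a subunit of inhibin, stood at 165, 101 and 49.6 CPM in adult and at 0 to 10.5 CPM in aged members (log2 -3.80, SE 0.342). CLU stood at 466, 286 and 157 CPM against 26.0 to 101 CPM, and PTGDS, a prostaglandin synthase gene, at 509, 496 and 132 CPM against 18.2 to 145 CPM. SERPINA5, GAS6, CARMIL1 and LAPTM4B, the other genes named by the rule, had log2 changes of -3.73 (SE 0.335), -2.80 (SE 0.320), -3.22 (SE 0.373) and -3.05 (SE 0.393). Each of these 4 was higher in somatic cells than in members in both age groups on average, as was INHA at 129 CPM in adult somatic cells. Summed Sertoli markers were 75.3 to 425 CPM in aged members against 527 to 2346 CPM in adult members, and 282 to 836 CPM against 650 to 4035 CPM in somatic cells.

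The genes that rose with age included SMCP of the late sperm list. SMCP, a protein of the sperm mitochondrial sheath, stood at 18.4, 330 and 787 CPM in adult and at 1059, 640, 683 and 1018 CPM in aged members (log2 1.85, SE 0.226), so the adult breeding library lay within the aged range. TPPP2 stood at 13.1, 135 and 407 CPM against 268 to 662 CPM (log2 2.07, SE 0.263), and NUPR2 at 9.99, 131 and 283 CPM against 253 to 524 CPM (log2 2.05, SE 0.242). TEX43 rose from 0.768, 17.2 and 35.1 CPM to 41.5 to 107 CPM (log2 2.63, SE 0.335), with no overlap, and so did the glycosyltransferase-like gene GALNTL5, from 13.8, 31.6 and 43.4 CPM to 85.7 to 122 CPM (log2 2.11, SE 0.272). PI4K2A, C2H3orf22, SPTY2D1OS, the transcription factor gene RFX1 and ETV2 rose by log2 1.75, 1.80, 2.02, 1.93 and 1.69. In the breeding libraries alone the estimates of all 10 named genes that rose were smaller, from log2 0.06 (PI4K2A) to 1.24 (GALNTL5), and in members with late genes and no early genes SMCP stood at log2 0.52 and RFX1 at log2 0.62. RFX1 stood at 21.5, 46.0 and 99.1 CPM in adult and at 119 to 178 CPM in aged members and averaged 83.8 CPM in aged somatic cells.

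**Figure D5:**
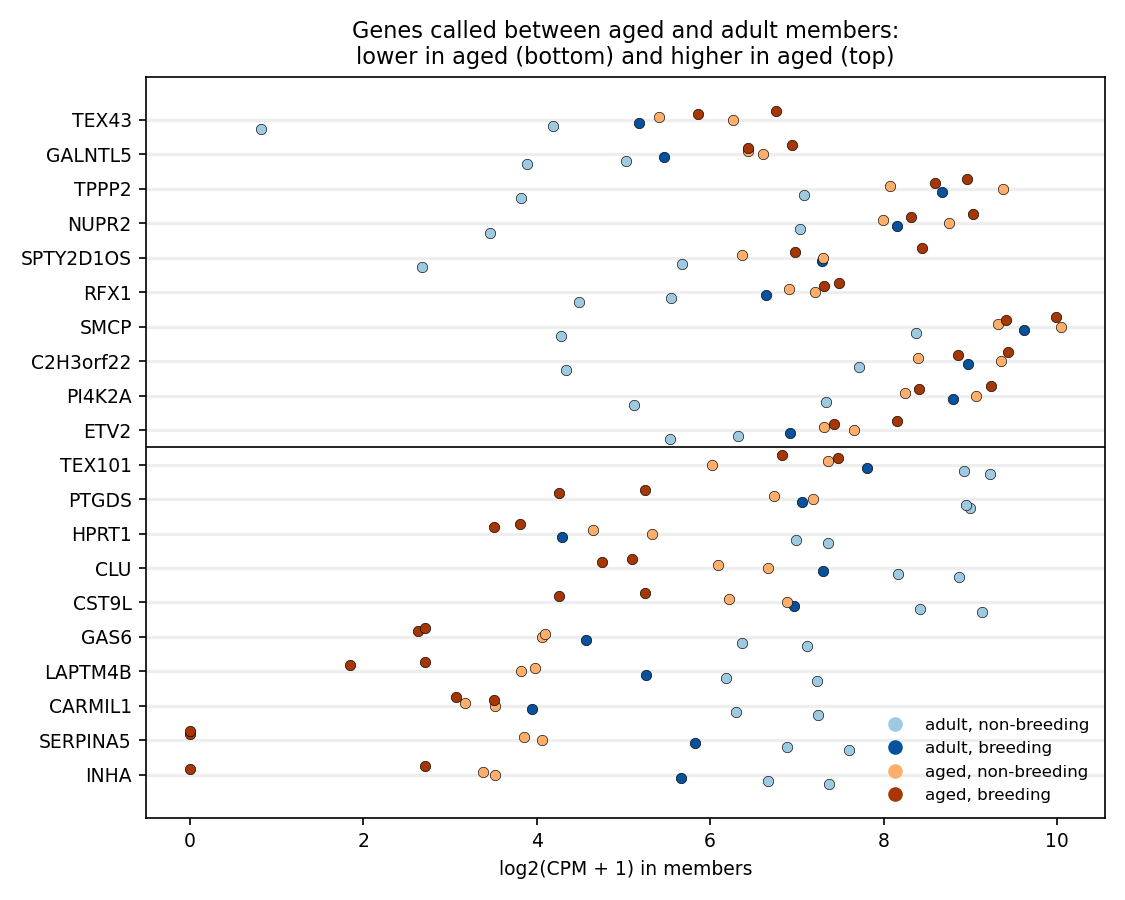
Level in members (horizontal axis, log2 of CPM + 1) of the 20 named genes called between aged and adult animals, 1 point per library, with genes lower in aged animals under the line and genes higher above it. For every gene drawn the adult breeding library lies on the aged side of both adult non-breeding libraries, as for RFX1 (21.5, 46.0 and 99.1 CPM in adult and 119 to 178 CPM in aged members).

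Levels in somatic cells moved with these calls. For 32 of the 33 called features the mean in somatic reference cells differed between ages in the same direction as in members, RAD51AP2 being the exception. In the age group with the higher level, 23 of the 33 had a lower mean in members than in somatic cells, and 5 were at least 2-fold above them, namely TEX101, RAD51AP2, GGN, C1H1orf56 and a feature without a symbol, of which all but TEX101 are named after their values were seen. SMCP averaged 1537 CPM in aged somatic cells against 850 CPM in aged members. With the 33 members that held somatic markers left out, 345 features were called, and with members of late genes and no early genes alone 2 were called. How free RNA and the stages within the members contribute to the age calls was not tested.

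Calls by list are those of edgeR's main fit, and they were not counted by list for the other fits. Among lists not called, the axoneme genes had a median of log2 0.61 with age. Of 25, 13 were higher at an unadjusted p under 0.05 in that fit and none was called. The 7 retrogenes tested had a median of 0.67, 4 of them higher at that level, and the 7 X-linked parents a median of -0.82, with 2 lower. PGK2 was higher in all 4 aged libraries than in both adult non-breeding libraries, but the adult breeding library (364 CPM) lay within the aged range of 260 to 478 CPM (log2 1.08, SE 0.199, adjusted p = 0.0661). The piRNA (median -0.12, 22 tested), axis (median -0.16, 14 tested) and respiration (median -0.04, 27 tested) lists had no called gene. HORMAD2, SYCP3, MLH3 and SPATA22 had estimates of 0.36, -0.32, -0.26 and -0.34 with adjusted p of 0.352, 0.389, 0.600 and 0.492. Of the late sperm list, 1 of 7 was called (SMCP), and of the acrosome list 1 of 11 (TEX101).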

How the data were processed

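The deposited files were raw UMI counts per gene and barcode of 12 testis libraries (10x), which the authors made with Cell Ranger (9.0.0 per the submitters' processing notes) on the Mmul_10 genome. For intronic reads, the counting mode is not given in the sources at hand. GEO listed 48 samples for these 12 matrices, and each matrix was tied to its group and animal by its name in the study's library sheet.

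A barcode was kept as a cell if it had 300 genes or more, no more than 30000 UMIs and a mitochondrial share (13 genes) of at most 3%, which held for 112150 of 112577. Members, gene lists and comparisons were chosen with earlier results of these data known. Doublets were predicted with Scrublet (scanpy 1.11.5, 0.8% per 1000 cells) and kept, with their removal as an alternative. Member counts were summed per library, and for age per animal. They were tested with edgeR 4.0.16 in R 4.3.3 (filterByExpr, TMM, quasi-likelihood test, Benjamini-Hochberg threshold 0.05) in libraries with at least 20 members, and DESeq2 1.42.0 was an alternative. The test was tested on simulated data. Since each animal gave a testis in each season, the animal pairs libraries across seasons (correlation of deviations in aged members 0.171, a single value at this size). Single values were compared by exact permutation tests.

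Named genes were, without the genes of the rule, up to 10 called genes per direction by adjusted p, the 20 with the highest level, the 15 with the largest ratio to each other cell class in each direction, the 4 highest of each list and the 8 highest X-linked genes, and the text gives a part of these. Genes outside this rule, such as RAD51AP2 and BRCA2, are given as members of a list. Comparison classes were set by marker genes. Upstream windows came from the RefSeq annotation of Mmul_10.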

Additional observations from a re-analysis of the deposited data

Results flagged for a closer look

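Prepubertal testis, which should hold few or no pachytene cells, entered no comparison of gene levels, and 1 of its 4 libraries held members above the others. The non-breeding library of prepubertal animal 1 had 18 members among 10467 cells (0.172%, exact 95% binomial interval 0.102% to 0.272%), while the other 3 had 1, 2 and 2. These 18 cells held 124362 UMIs, with 1.64% from X-linked genes. SYCP3 stood at 265 CPM and HORMAD1 at 273 CPM, TEX101 at 490.5 CPM, ANKRD7 at 2991 CPM and GLIPR1L1 at 3466 CPM. CCNA1 had 1 UMI, and PGK2 (32.2 CPM) stood below PGK1 (56.3 CPM). AMH, a Sertoli gene, was at 1319 CPM and PRM1 at 32.2 CPM. Early genes without diplotene genes were seen in 7 of the cells, both kinds in 7, diplotene genes alone in 3 and neither in 1. The library also held 35 AURKA-positive cells and 37 round spermatids. No prepubertal group was tested against another.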

How the results depend on the processing

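In edgeR without the animal as a replicate block, the season tests as reported called no gene, and with it 1107 features passed for adult season, 102 for aged season and 411 for the interaction, on 1 residual degree of freedom. DESeq2 called 46, 1 and 518 features (adult season, aged season, age), and fitting without a filter on low counts called 375, 118, 36 (interaction) and 1380 (age). Leaving out 1 library in turn gave 0 to 376 calls for adult season, 0 to 1 for aged season and 0 to 102 for the interaction, the highest without adult non-breeding 2, aged non-breeding 2 and adult non-breeding 2. Leaving out 1 animal in turn gave 1 to 520 for age (1 without adult 1, 439 without adult 2, 520 without aged 1, 259 without aged 2). For age, non-breeding or breeding libraries alone and doublets left out gave 0, the stricter rule (3 of the genes) 593, and, added after seeing the data, members with somatic markers left out 345, the rule on thinned cells 0 and late-only members 2. The share of members between aged seasons moved to -0.662 (thinned) and -0.0228 (stricter), and between ages to 1.09 and 0.138 percentage points. The X-linked share between adult seasons moved to -0.518 without doublets, -0.460 with the stricter rule, -0.551 without the 10 X-linked genes with the most UMIs and -0.270 with the rule on thinned cells, and between ages to -0.0604 with the last. SYCP1 between adult seasons turned from -1.80 to 0.18 in late-only members. The cause of these changes was not tested. Of the alternatives for named genes, 235 kept direction and side of the threshold, 117 kept direction and lost the call, 14 gained one and 1 reversed. These counts include adult season genes that were not called to begin with, such as SYCP1. Each of the 20 named age genes kept its call in 8 alternatives and lost it in 5 or 6. Members had 2085 to 7537.5 median UMIs and numbered 96 to 236 per library, with at most 2 libraries a group, and the effect of depth on calls was not tested.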

Other observations

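BMT2, among the 20 genes with the highest level in members, differed between animals more than between groups, a pattern picked out after its values were seen. In members it stood at 6762 CPM in adult animal 2 (non-breeding) and at 6254 and 4524 CPM in aged animal 1 (non-breeding and breeding). It stood at 1231 and 541 CPM in adult animal 1 and at 492 and 552 CPM in aged animal 2. Somatic reference cells of the same libraries held 4645, 5431, 2236, 1226, 325, 317 and 292 CPM in that order. Over all cells of the breeding library of adult animal 2, which had no members, the level was 3948 CPM. It was not tested what sets these levels.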
